A study of Rattus norvegicus with 6 samples.

Results

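Transcripts of small proteoglycans and matricellular proteins were followed in liver endothelial cells of cirrhotic and control rats. The set held 10 genes, namely Dcn, Bgn, Lum, Fmod, Sparc, Sparcl1, Tnc, Postn, Spp1 and Fn1, and every probe set whose only gene symbol in the platform annotation was one of them was taken, dim ones included. This gave 10 of the 10411 genes named by a probe set of their own, and 11 of the 15866 probe sets, with 2 for Sparc and 1 for each other gene. The arrays were Affymetrix rat 230A expression arrays, 3 from cirrhotic and 3 from control Wistar rats. The cells came from livers perfused with collagenase, were enriched by density centrifugation and were picked out with magnetic beads carrying antibodies. The labels call the cirrhotic animals adult males. The sources used here do not give the agent that induced cirrhosis, the antibody target, or how old and of which sex the controls were. They also do not say how many rats stand behind an array, so p-values measure only the spread between these arrays.

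Small leucine-rich proteoglycans are secreted proteins with a curved repeat domain that binds collagen fibrils and sets how thick and how regular the fibrils become. Decorin and biglycan carry chondroitin or dermatan sulphate chains and also bind transforming growth factor beta, while lumican and fibromodulin can carry keratan sulphate. Matricellular proteins such as SPARC, tenascin-C, periostin and osteopontin sit in the matrix but act mainly on the contacts between cells and matrix, and fibronectin is the adhesive glycoprotein on which much of the matrix is assembled. In injured liver these products are known from activated stellate cells and portal fibroblasts, osteopontin also from bile duct epithelium and macrophages, and fibronectin also from hepatocytes.

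The sequences before the starts of Tnc, Postn and Spp1 are shown because these matricellular members, whose cirrhotic signals all lay above the control signals, held the same short sequence there. Promoter sequences were found in RefSeq (build GRCr8) for 7 of the 10 genes, and Dcn, Bgn and Fn1 were not among them. The letters TATAAA, the core of the box at which many regulated genes start transcription, were searched on both strands of the 250 bases before each start. They were present for 3 of the 7 members, Tnc, Postn and Spp1, and in 12.9% of the 33469 promoters in the table. The match lay 208 bases before the start in Tnc, 44 in Postn and 204 in Spp1, each on the gene's own strand. In Tnc and Spp1 it was thus nearer to the far end of the window than to the start. Variant spellings of the box were not searched. One of them, tatataag, stands in the Tnc window much nearer to the start than the marked TATAAA and is printed in lower case. The capitals in Tnc and Spp1 thus mark a spelling and not the position of a box that serves these starts. The letters TGANTCA, bound by AP-1 factors, were in none of the 7 windows and in 6.34% of all windows, and GGGCGG, bound by Sp1, was in the windows of Tnc and Fmod and in 30.5% of all windows. The windows were searched after the signals had been seen, longer gene models of the 3 genes begin further upstream than the starts used here, and a match shows the letters and not a site in use. The 3 windows are printed with TATAAA in capitals, Tnc at chr5:82476132-82476381 (minus strand), Postn at chr2:140677811-140678060 (plus strand) and Spp1 at chr14:5619805-5620054 (minus strand).
Tnc: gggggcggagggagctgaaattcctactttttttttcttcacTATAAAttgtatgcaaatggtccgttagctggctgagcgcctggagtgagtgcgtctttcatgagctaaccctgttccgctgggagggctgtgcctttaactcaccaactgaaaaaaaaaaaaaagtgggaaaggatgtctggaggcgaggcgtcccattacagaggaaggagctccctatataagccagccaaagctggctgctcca
Postn: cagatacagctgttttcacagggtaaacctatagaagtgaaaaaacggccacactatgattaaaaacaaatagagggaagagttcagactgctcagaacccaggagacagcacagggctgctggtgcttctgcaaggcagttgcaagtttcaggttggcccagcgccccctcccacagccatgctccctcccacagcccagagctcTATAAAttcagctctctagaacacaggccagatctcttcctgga
Spp1: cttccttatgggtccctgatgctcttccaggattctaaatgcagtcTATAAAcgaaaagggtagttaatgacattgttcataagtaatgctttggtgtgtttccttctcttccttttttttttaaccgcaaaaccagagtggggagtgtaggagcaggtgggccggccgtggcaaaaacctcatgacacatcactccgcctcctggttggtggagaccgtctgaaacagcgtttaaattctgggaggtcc

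All 6 arrays had been scaled by the authors to nearly the same trimmed mean signal (399.2 to 399.6). Bacterial control probe sets, for which no matching rat RNA is expected, reached at most 21.7 to 49.9 on an array, which is the level below which a signal cannot be told from background. As a sign of RNA quality, beta-actin had a 3'/5' ratio of 1.23 to 1.27 on the cirrhotic arrays, against 1.57, 1.22 and 1.53 on control arrays 1, 2 and 3, and GAPDH one of 1.13 to 1.15 on the cirrhotic arrays, against 1.37, 1.08 and 1.24. The part of RNA quality in the differences was not tested. Cirrhotic and control arrays correlated less with each other (Pearson's r across tested probe sets 0.821 to 0.874) than arrays of the same group (0.912 to 0.967). Markers of other cell types set cirrhotic array 3 apart, with all 10 measured cholangiocyte markers and all 12 macrophage markers lowest and all 18 hepatocyte markers highest there among the cirrhotic arrays, so members are given by array. Of 20 tested endothelial markers 19 were lower in cirrhotic cells, against 12.7% of all tested named genes. The other, the tight junction gene Cldn5, was higher (870.0 ± 191 in cirrhotic and 109 ± 24.5 in control, SD, n = 3 each). The control mean of Cldn5 was under the brightness limit of the test (about 127), so Cldn5 entered through its cirrhotic signals. The summed signal of 10 sinusoidal endothelial markers was 22924 to 27803 on cirrhotic and 51307 to 56976 on control arrays. In bulk RNA of this kind, fewer cells of a type and less RNA per cell cannot be told apart.

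Differences are given as log2(signal + 16), cirrhotic minus control, and were tested in limma, with p-values adjusted by the Benjamini-Hochberg method over the 9519 probe sets bright enough to enter it. At an adjusted p under 0.05, 25.4% of these probe sets were called, 12.3% as higher and 13.2% as lower in cirrhotic. Of the 7 member genes bright enough, Dcn, Bgn, Lum, Sparcl1, Spp1 and Fn1 were higher, none was lower, and Sparc did not pass. Spp1 entered the test through its cirrhotic signals, since its control mean (110 ± 46.9) lay under the brightness limit of about 127, so the count of 6 of 7 is a description. In the same 6 genes every cirrhotic value was above every control value, which held for 20.8% of tested probe sets, and the groups separated in either direction in 44.9%. Fmod, Tnc and Postn were too dim over the 6 arrays. In the fit without a brightness filter, 8 of 10 genes were higher, against 8.06% of all 15866 probe sets, and the same 8 had all cirrhotic values above the controls, against 17.4%. The members were chosen with earlier results of these data known, so these counts and shares describe the set and do not test it.

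**Figure D1:**
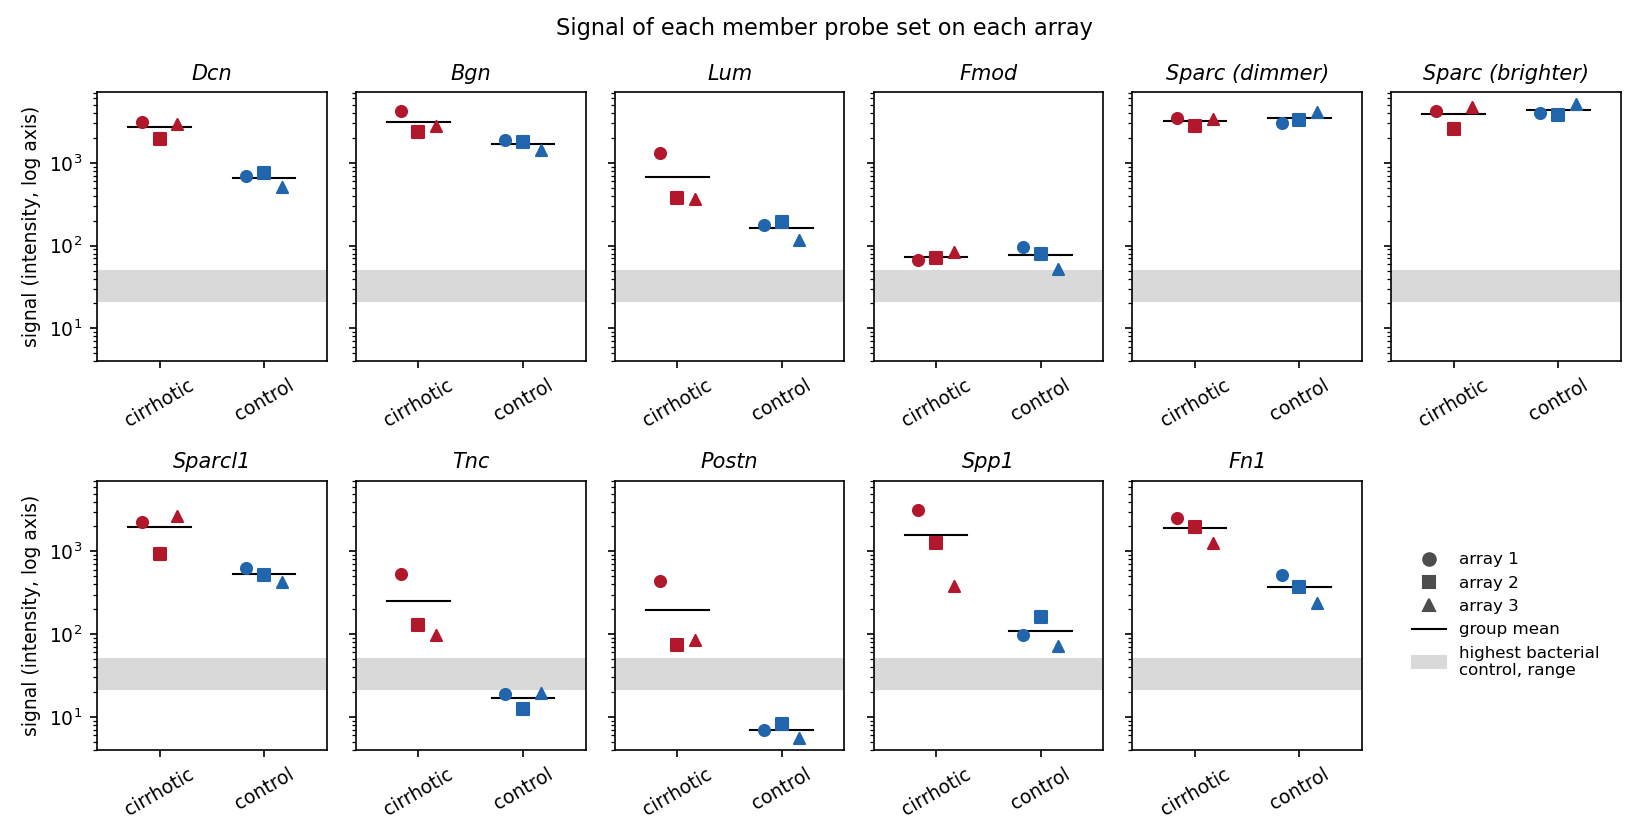
Signal intensity (log axis) of the 11 member probe sets on each cirrhotic (red) and control (blue) array, with array number by symbol, group means as lines and the range of the highest bacterial control signals (21.7 to 49.9) in grey. Cirrhotic signals lie above all control signals in 8 genes, while those of Fmod and Sparc overlap.

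Among the small proteoglycans, Dcn, encoding decorin, rose the most steadily. Its signal was 3121, 1949 and 2958 on cirrhotic arrays 1, 2 and 3, against 696, 745 and 516 on control arrays 1, 2 and 3. The groups lay far apart and each kept within a narrow range. The difference was 2.00 (SE 0.22, n = 3 per group, adjusted p = 0.000941), a nearly 4-fold rise (3.99-fold on the signal + 16 scale), and it passed under each of the 15 alternatives tried.

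Bgn, encoding biglycan, the nearest relative of decorin, was bright in both groups. The signal was 4279.7, 2348 and 2750.1 on the cirrhotic arrays, against 1877, 1788 and 1424 on the control arrays. All cirrhotic values were above all control values, but cirrhotic arrays 2 and 3 came closer to the controls than cirrhotic array 1. The difference was 0.84 (SE 0.23, adjusted p = 0.0301). This call was lost when cirrhotic array 1 was left out (adjusted p = 0.0645), and likewise for control array 1, 2 or 3 (0.0569, 0.0678 and 0.109).

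Lum, encoding lumican, had a signal of 1309 on cirrhotic array 1, 372 on array 2 and 367 on array 3, against 175, 191 and 117 on the control arrays. The rise was carried unevenly, with cirrhotic array 1 far above the other two. The difference was 1.74 (SE 0.46, adjusted p = 0.0284), and 1.15 without cirrhotic array 1. Leaving out control array 1, 2 or 3 ended the call (adjusted p = 0.065, 0.0606 and 0.103).

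Fmod, encoding fibromodulin, gave no such difference. It read 66.5, 70.8 and 82.6 on cirrhotic and 95.9, 79.5 and 52.4 on control arrays, all above the bacterial control probe sets of their array but below the brightness limit. The groups overlapped fully. Without the filter the difference was -0.02 (95% interval -0.56 to 0.52, adjusted p = 0.974), which does not show equal levels.

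Sparc, a collagen-binding calcium-binding glycoprotein that endothelial cells also make, was the brightly measured member with no detected difference. Its brighter probe set read 4269, 2599 and 4788 on cirrhotic and 4034, 3812 and 5106 on control arrays, and the dimmer read 3494, 2813 and 3426 on cirrhotic and 3060.0, 3302 and 4139 on control arrays. Both probe sets overlapped between the groups and both were lowest on cirrhotic array 2 among the cirrhotic arrays. The differences were -0.19 (95% interval -0.72 to 0.34, adjusted p = 0.582) and -0.10 (-0.44 to 0.23, adjusted p = 0.639).

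Sparcl1, also called hevin, a relative of SPARC, did rise. Its signal was 2278, 934 and 2671 on cirrhotic arrays, against 622, 525 and 431 on control arrays. The groups did not overlap, and cirrhotic array 2 was far below the other cirrhotic arrays. The difference was 1.75 (SE 0.37, adjusted p = 0.0117). The call ended narrowly without cirrhotic array 1 (adjusted p = 0.0527) or control array 3 (0.053). The intervals of Sparcl1 (0.90 to 2.60) and of the brighter Sparc probe set did not meet, although the difference between these genes was not itself tested.

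Tnc, encoding tenascin-C, a large adhesion-modulating glycoprotein of healing tissue, read 527, 128 and 97.7 on cirrhotic arrays and 19.0, 12.5 and 19.2 on control arrays. Every control value lay within the bacterial control probe sets of its array, so a level was measured in cirrhotic cells only. Against that background the cirrhotic signal was at least 4.59-fold higher, from mean log2 signals with each control array set at its highest bacterial control. Cirrhotic array 1 raised this mean, so the bound need not hold for arrays 2 and 3 alone. In the fit without the filter the difference was 2.66 (SE 0.54, adjusted p = 0.0178), 1.97 without cirrhotic array 1, and the call ended without any 1 of the control arrays (adjusted p = 0.0531 to 0.064).

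Postn, encoding periostin, which takes part in collagen assembly and cross-linking, behaved likewise. Its signal was 432, 73.3 and 84.1 on cirrhotic arrays, against 7.0, 8.2 and 5.6 on control arrays, and again all control values were within background. The mean cirrhotic signal, raised by array 1, was at least 3.39-fold higher, a bound that need not hold for arrays 2 and 3 alone. Without the filter the difference was 2.79 (SE 0.57, adjusted p = 0.0179), or 2.05 without cirrhotic array 1, and the call ended without any 1 of the control arrays (adjusted p = 0.0555 to 0.0706). With the larger added constant of 126 neither Tnc (1.22, adjusted p = 0.0747) nor Postn (1.11, adjusted p = 0.0943) passed.

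Spp1, encoding osteopontin, a phosphoprotein that binds integrins and CD44, had the largest difference among the 7 tested members. It read 3136, 1260.3 and 382 on cirrhotic arrays 1, 2 and 3, against 97.0, 162 and 70.9 on control arrays. The groups did not overlap, but cirrhotic array 3 lay far below cirrhotic array 1. The difference was 3.28 (SE 0.66, adjusted p = 0.0102), 2.56 without cirrhotic array 1 and 4.06 without cirrhotic array 3, and it passed under all alternatives, with adjusted p-values up to 0.0477.

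Fn1, encoding fibronectin, rose in a steadier way. Its signal was 2560, 1980.4 and 1270.3 on cirrhotic arrays, against 515, 376 and 237 on control arrays. No control value came near the cirrhotic ones. The difference was 2.33 (SE 0.32, adjusted p = 0.00243), about 5-fold (5.01-fold on the signal + 16 scale), and passed under all alternatives. The Fn1 probe set does not show which splice form, plasma or cellular, was present.

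**Figure D2:**
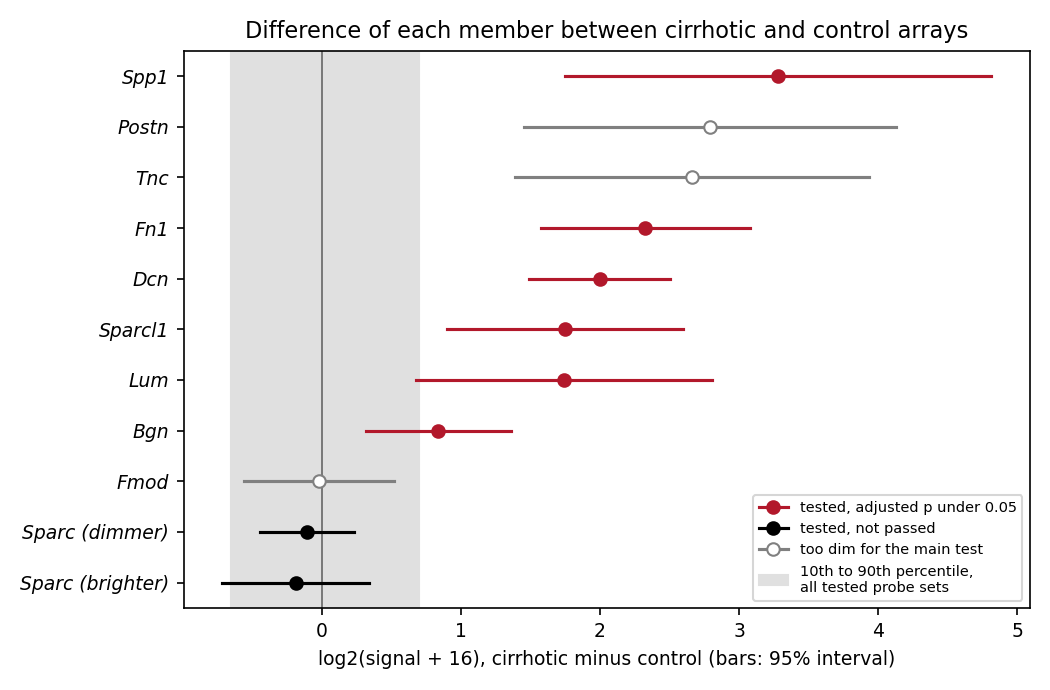
Difference in log2(signal + 16), cirrhotic minus control, of each member probe set with its 95% interval, in red where the adjusted p was under 0.05, black where it was not and open grey where the probe set was too dim for the main test (fit without the filter). The grey band holds the 10th to 90th percentile of all tested probe sets (-0.65 to 0.70), and 8 genes lie to its right, Bgn and Lum with intervals that reach into it.

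The members that rose did not share 1 order over the cirrhotic arrays. For Lum, Tnc, Postn and Spp1, cirrhotic array 1 was higher than the mean of the other cirrhotic arrays by 1.78, 2.08, 2.25 and 2.15 on the log2(signal + 16) scale. For Dcn it was higher by 0.38 and for Bgn by 0.75. Sparcl1 was instead highest on array 3, by 0.86, and lowest on array 2, by -1.39. Sparc, which did not rise, was also lowest on array 2, by -0.79 in its brighter and -0.30 in its dimmer probe set. The brighter was highest on array 3, by 0.52, and the dimmer on array 1, by 0.17. Spp1 and Fn1 were lowest on array 3, by -2.33 and -0.82. Of the members that were higher in cirrhotic, Dcn, Bgn, Sparcl1 and Postn were thus lowest on array 2, and Spp1, Fn1, Tnc and, by a small margin, Lum on array 3.

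Markers of other cells moved over the same arrays. The 10 cholangiocyte markers had a median deviation of 0.60, 0.84 and -1.44 on cirrhotic arrays 1, 2 and 3, and the 12 Kupffer cell and macrophage markers of 0.64, 0.25 and -1.04. Both lists were thus lowest on array 3, where Spp1 was lowest too. So were the lists of portal fibroblast and mesothelial (-0.47), T and NK cell (-0.95) and mast cell (-0.68) markers. The order of the arrays thus sets no single cell type beside Spp1. The endothelial, stellate cell, hepatocyte and platelet lists were lowest on other arrays. The 3 macrophage markers brightest on the cirrhotic arrays were Lyz2, Laptm5 and Gpnmb, the same 3 that rose against control. Each was highest on array 1 and lowest on array 3. Of all 12 macrophage markers 8 were highest on array 1 and 4 on array 2. Gpnmb, a glycoprotein of phagocytes singled out after its values were seen, was 2807, 1248 and 563 on cirrhotic arrays. Hepatocyte markers ran the other way on array 3, with a median deviation of 0.90, while Fn1 was lowest there. The 16 stellate cell and myofibroblast markers had median deviations of 0.30, -0.26 and 0.09 but went different ways, with 8 highest on array 1, 2 on array 2 and 6 on array 3.

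**Figure D3:**
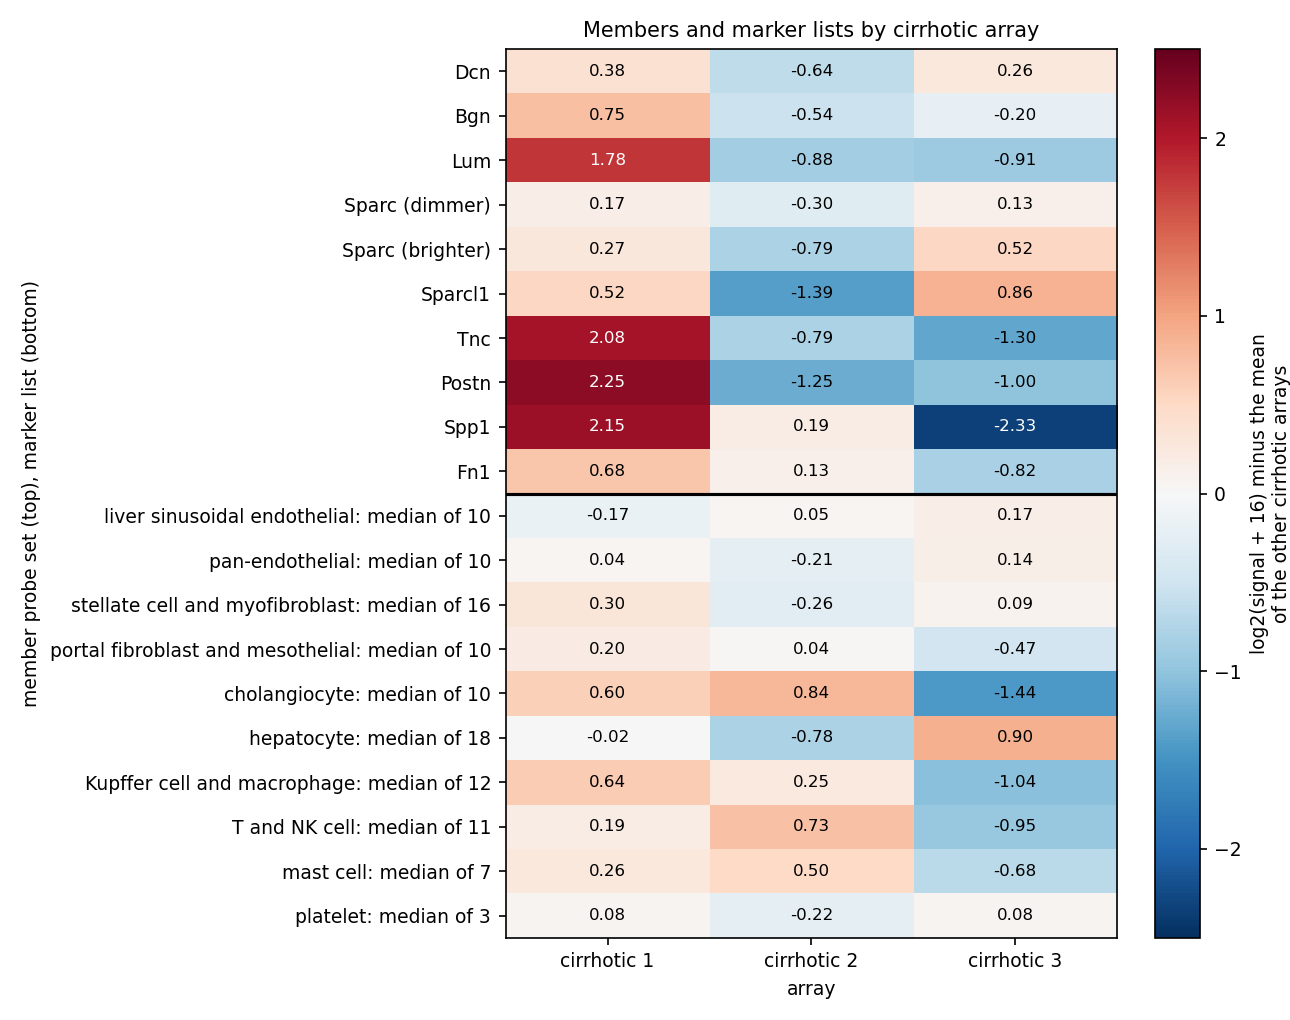
Deviation of each cirrhotic array from the mean of the other cirrhotic arrays, in log2(signal + 16), for 10 member probe sets (top, Fmod left out as too dim in both groups) and for the median of each marker list (bottom). Array 1 is high for Lum, Tnc, Postn and Spp1, and array 3 is low for Spp1 and for cholangiocyte, macrophage, T cell and mast cell markers.

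The same marker lists differed between the groups. A marker whose control mean was under the brightness limit entered the test through its cirrhotic signals. Its difference could then only point upward, though it need not pass, as for the cholangiocyte marker Krt19 (70.3 in control, adjusted p = 0.0826). Among risen markers, such control means held for 3 of the 9 stellate cell, 2 of the 4 portal fibroblast and 4 of the 7 cholangiocyte markers. They also held for 3 of the 6 T and NK cell, all 3 mast cell and 1 of the 8 hepatocyte markers, and for Cldn5. Clec4f, the 1 macrophage marker that fell, entered through its control signals instead. These counts are thus descriptions, to be read against the 12.7% that rose and 12.7% that fell among all 7148 tested named genes. Of 12 tested stellate cell and myofibroblast markers 9 rose and none fell, and the summed signal of all 16 was 15555 to 21895 on cirrhotic and 5860.4 to 6709.7 on control arrays. Vim, an intermediate filament protein of mesenchymal cells, averaged 4899 ± 1405 in cirrhotic and 1052 ± 150 in control (SD, n = 3 each), while Reln, a secreted glycoprotein of stellate cells, did not pass (2704 ± 383 and 2357 ± 852). The 4 markers too dim to be tested were Acta2, Des, Cnn1 and Ngfr. In the fit without the filter Acta2 was higher (62.3 ± 31.1 in cirrhotic and 17.6 ± 3.12 in control, adjusted p = 0.033), with all control values within background. Des (113 ± 120 and 96.2 ± 75.9, adjusted p = 0.949) and Cnn1 (40.7 ± 1.65 and 39.6 ± 11.4, adjusted p = 0.901) did not pass there. Ngfr, a stellate cell receptor, stayed within the bacterial controls on all 6 arrays, and no marker of any list was at 0.

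Of 7 tested portal fibroblast and mesothelial markers 4 rose, with a sum of 4460.3 to 6273 on cirrhotic and 1222 to 1809 on control arrays. Mfap4, a microfibril-associated protein, was the brightest (2845 ± 690.02 and 281 ± 87.8). Of 8 cholangiocyte markers 7 rose, with a sum over 10 genes of 6034 to 13072 on cirrhotic and 1265 to 2117 on control arrays. The keratin gene Krt8 averaged 2788 ± 888 and 315 ± 134. Of 11 macrophage markers 3 rose and 1, Clec4f, fell (65.2 ± 44.4 in cirrhotic and 782 ± 509 in control). The other 7 did not pass, and the sums over 12 genes overlapped between the groups (6695 to 16050 in cirrhotic and 5129 to 9884 in control). The single fall, of Clec4f, was near the share among all tested named genes (12.7%). Of 18 hepatocyte markers 8 rose, and the sums were 50082 to 96407 in cirrhotic and 40893 to 57072 in control. Of 10 T and NK cell markers 6 rose, of 4 mast cell markers 3 rose and 1 fell, and the 1 tested platelet marker did not pass. All 10 sinusoidal endothelial markers and 9 of 10 pan-endothelial markers fell, with median differences of -1.19 and -1.16. The part of these cells in the members' differences was not tested.

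Other genes of the same pathways were read from 6 lists with 94 measured genes, of which 59 were tested, 20 rose and 13 fell. Of the 20, Aspn, Fbln1, Chpf, Itga8 and Adamts9 had control means under the brightness limit, and of the 13, Esm1 and Tlr4 had cirrhotic means under it, so they entered through 1 group and the counts are descriptions. Among all 7148 tested named genes, with 1 probe set each, 12.7% rose and 12.7% fell, and the counts are to be read against these shares. Of the other small leucine-rich proteoglycans, 3 of 4 tested genes rose. Aspn, encoding asporin, averaged 349 ± 120 in cirrhotic and 70.9 ± 37.4 in control (difference 2.11, SE 0.38, adjusted p = 0.0069). Prelp, a heparin- and collagen-binding relative of fibromodulin, averaged 1355 ± 316 and 632 ± 18.6 (1.05, SE 0.19, adjusted p = 0.00615). Ogn, encoding osteoglycin, averaged 1188 ± 432 and 436 ± 217 (1.47, SE 0.36, adjusted p = 0.0224). It no longer passed with cirrhotic array 1, control array 2 or control array 3 left out (adjusted p = 0.08, 0.0626 and 0.079). Omd, encoding osteomodulin, had a difference of 0.68 and did not pass (adjusted p = 0.0504), but did without cirrhotic array 2 (0.0245). The list's median was 1.26, against -0.02 over all tested probe sets.

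Other matricellular proteins went both ways, with 4 of 12 tested genes higher, 2 lower and a median of 0.30. The 2 lower genes were near the share among all tested named genes (12.7%). Fbln5, which guides elastic fibre assembly, rose by 1.94 (SE 0.30, adjusted p = 0.00375). Fbln1, a matrix glycoprotein that binds fibronectin, rose by 1.32 (SE 0.32, adjusted p = 0.0204). It did not pass with cirrhotic array 1 or control array 3 left out (adjusted p = 0.0776 and 0.0639). Ecm1, a secreted matrix glycoprotein, fell by 1.24 (SE 0.21, adjusted p = 0.00512), from bright signals in both groups (1229 ± 395 in cirrhotic and 2839 ± 216 in control). Tgfbi, a matrix protein related to periostin, fell by 0.97 (SE 0.18, adjusted p = 0.00776), with 950 ± 239 in cirrhotic and 1843 ± 146 in control, while Postn differed in the other direction.

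Large, cell-surface and other proteoglycans had 4 of 11 tested genes higher and 6 lower (median -0.50). Of the lower genes, Hspg2, Agrn and Sdc3 each kept the call in only 1 of the 6 fits that left out an array. These 3 did not pass in the fit without the filter (adjusted p = 0.0594, 0.0589 and 0.0563). Of the higher genes, Sdc1 kept the call in 3 of the 6 fits and Cd44 in 4. The syndecans Sdc4 and Sdc2, which carry heparan sulphate on the cell surface and bind fibronectin, rose by 1.19 (SE 0.18, adjusted p = 0.00362) and 1.41 (SE 0.27, adjusted p = 0.00866). Srgn, encoding serglycin, the proteoglycan of secretory granules, fell by 0.72 (SE 0.12, adjusted p = 0.00457). Esm1, a proteoglycan secreted by endothelial cells, fell by 3.03 (SE 0.47, adjusted p = 0.00368), with a difference of -2.40 without control array 3. Thus proteoglycan genes other than the small leucine-rich ones were higher in some cases and lower in others.

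Enzymes that build chondroitin and dermatan sulphate chains, which decorin and biglycan carry, changed in 1 of 12 tested genes (median 0.06). A single rise was near the share among all tested named genes (12.7%). Chpf, a chain-polymerising factor, rose by 1.65 (SE 0.17, adjusted p = 0.000911), with 330 ± 61.1 in cirrhotic and 93.4 ± 1.46 in control. Ugdh, which makes the sugar precursor UDP-glucuronate, had a difference of 0.37 (adjusted p = 0.0663), and Papss1, which makes the sulphate donor, of 0.49 (adjusted p = 0.082, and 0.00899 without cirrhotic array 3). Ugp2, which makes UDP-glucose, had a difference of -0.38 (adjusted p = 0.147).

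Receptors bound by the members were split, with 3 of 9 tested genes higher and 3 lower (median -0.41). Stab1, a scavenger receptor of sinusoidal endothelium that takes up SPARC, fell by 1.64 (SE 0.16, adjusted p = 0.000766), while its ligand gene Sparc did not pass. The integrin subunits Itgb5 and Itga8, parts of receptors for osteopontin and for fibronectin, rose by 0.94 (SE 0.17, adjusted p = 0.00617) and 1.27 (SE 0.23, adjusted p = 0.00725). Itga1, part of a collagen receptor of endothelium, fell by 1.17 (SE 0.21, adjusted p = 0.00704). Cd44, the osteopontin and hyaluronan receptor, named after its value was seen, rose by 1.08 (SE 0.22, adjusted p = 0.0112). It narrowly missed the threshold with cirrhotic array 1 (0.0507) or control array 3 (0.0503) left out.

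Genes for assembly, cross-linking and cleavage of the members had 6 of 12 tested genes higher and 2 lower (median 0.43). Here too the 2 lower genes were near the share among all tested named genes (12.7%). Mmp2, a gelatinase that also cleaves fibronectin, rose by 2.48 (SE 0.22, adjusted p = 0.000518), with 2131 ± 556 in cirrhotic and 362 ± 57.7 in control. Plat, tissue plasminogen activator, rose by 1.53 (SE 0.26, adjusted p = 0.0056). The versican-cleaving proteases Adamts9 and Adamts1 changed in opposite directions, Adamts9 with a rise of 1.52 (SE 0.28, adjusted p = 0.00699) and Adamts1 with a difference of -1.34 (SE 0.10, adjusted p = 0.000442).

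**Figure D4:**
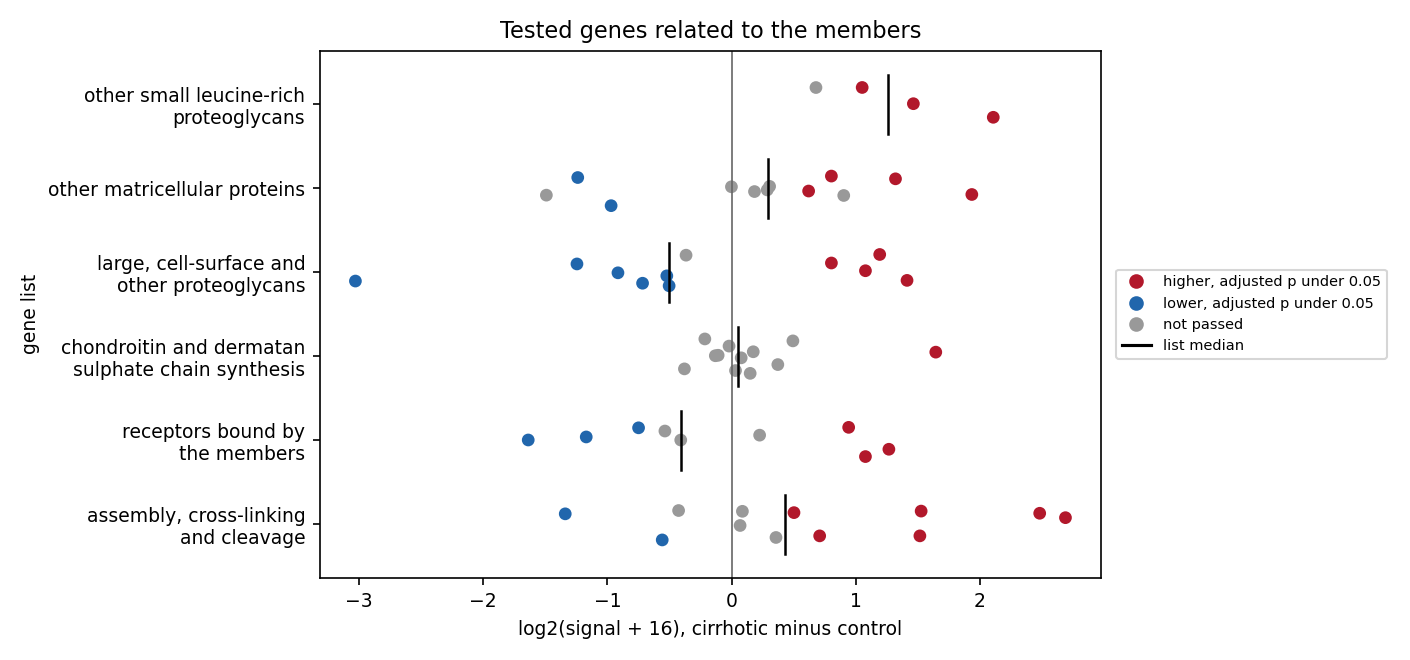
Difference in log2(signal + 16), cirrhotic minus control, of the tested genes in the 6 lists related to the members, in red or blue where the adjusted p was under 0.05 and grey where it was not, with list medians as black lines. The medians run from -0.50 for large, cell-surface and other proteoglycans to 1.26 for the other small leucine-rich proteoglycans.

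The tested genes whose pattern over the 6 arrays came nearest to the mean standardised log2 values of the 7 tested members were Rrm1, C19h1orf198, Esd, Fndc1 and Ltbp4, with Pearson's r of 0.997, 0.995, 0.995, 0.99 and 0.987 over the 6 arrays. These coefficients reflect the gap between the groups, which all 5 genes share, and also the order of the cirrhotic arrays. The member mean was 1.22, 0.11 and 0.62 on cirrhotic arrays 1, 2 and 3. All 5 genes were likewise highest on array 1 and lowest on array 2 among the cirrhotic arrays. Fndc1, which encodes a protein with fibronectin type III domains, read 639, 251 and 337 on cirrhotic and 97.9, 76.3 and 56.7 on control arrays, and rose by 2.11 (SE 0.33, adjusted p = 0.00383). Ltbp4, which tethers latent transforming growth factor beta and takes part in elastic fibre assembly, read 2915, 2048 and 2309 on cirrhotic and 1479, 1389 and 1176 on control arrays, and rose by 0.83 (SE 0.16, adjusted p = 0.00898). Rrm1, a subunit of ribonucleotide reductase, passed narrowly (0.56, SE 0.17, adjusted p = 0.0453) and did so in 1 of the 6 fits that left out an array.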

How the data were processed

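Liver endothelial cell RNA was hybridised to 6 arrays. The authors deposited a linear intensity for each probe set on each array. These signals had been scaled by the authors, as the mean without the lowest and highest 2% shows, and the summary software is not given in the sources used here. Arrays have no read depth, and their number limits the precision.

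The analysis used log2(signal + 16). The added 16 is close to the 10th percentile of the signals. The 57 control probe sets and the dimmest 40% by mean over all arrays were left out, and 9519 were tested with limma 3.58.1 in R 4.3.3 (variance trend, two-sided, threshold 0.05). A gene stood on its brightest probe set. Symbols came from the supplied platform annotation, and 12783 probe sets had 1 symbol. A bound was computed where all arrays of the dimmer group lay within 27 bacterial control probe sets.

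Members and lists were chosen with earlier results of these data known. Named genes were all members, the 4 of each related list with the smallest p, up to 3 of each marker list with the highest cirrhotic signal, and the 5 most alike in pattern. Genes named outside this rule, such as Cldn5, Ngfr, Clec4f and Krt19, were picked after their values had been seen. Gene positions come from RefSeq GRCr8. Array numbers 2 and 3, carried by both groups, served as a random replicate block, and the array titled without a number was called control 1.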

Additional observations from a re-analysis of the deposited data

How the results depend on the processing

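Across quantile normalization, median centring, other added constants (1 and 126), no filter, a filter at 60%, no variance trend and array weights, the number of member genes called was 6 to 8, all higher in cirrhotic, and it was 6 with the probe set of smallest p for each gene. Leaving out each array in turn gave 3 to 6 member genes, 21 to 32 related genes (33 with all arrays) and 1341 to 2472 probe sets (2421 with all arrays). The lowest counts came without control array 3, where Dcn, Spp1 and Fn1 were the members called, and, for related genes, also without cirrhotic array 1 (21). With array weights 3772 probe sets were called. Median centring called 926 probe sets higher and 1479 lower, against 1167 and 1254. Arrays with the same number, 2 or 3, gave no sign of pairing (correlation of deviations -0.01 and -0.16). Arrays with crossed numbers gave 0.22 and -0.02, so so few arrays cannot settle whether the numbers pair them. The replicate block gave 6 member genes, 30 related genes and 2174 probe sets, and changed no member's call. Fmod and both Sparc probe sets passed under no alternative. The filter at 60% gave no value for Fmod, Tnc and Postn, whose low signals over background limit them.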

Other observations

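Several members lie side by side in the genome. Among the protein-coding genes of the GRCr8 table Dcn and Lum are direct neighbours on chromosome 7, followed by Kera and Epyc, which encode further small leucine-rich proteoglycans and had no probe set named for them alone. Fmod follows Optc and Prelp on chromosome 13. Prelp had signals of 1588, 995 and 1483 on cirrhotic and 652, 616 and 629 on control arrays and rose by 1.05, whereas its direct neighbour Fmod read at most 95.9 on any array. Spp1 and Sparcl1 stand at the ends of a row of 6 genes on chromosome 14 that also holds Mepe, Ibsp, Dmp1 and Dspp, genes of bone and tooth matrix. Mepe read at most 34.4 on cirrhotic and 14.9 on control arrays, and Ibsp at most 8.3 on cirrhotic and 13.5 on control arrays, all within the bacterial control probe sets. Dspp was also too dim to be tested (58.7 ± 11.6 in cirrhotic and 71.3 ± 24.0 in control, SD, n = 3 each). The genes between Spp1 and Sparcl1 that were measured thus had no difference that passed the test without a filter, beside rises at both ends. These neighbours were looked up after the members' values had been seen.

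Genes related to the members that were too dim over all arrays for the main test still included some with separate groups. Gpc6, a cell-surface heparan sulphate proteoglycan, read 479, 259 and 316 on cirrhotic and 27.2, 51.4 and 37.3 on control arrays (2.73, SE 0.28, adjusted p = 0.00154 without the filter). Fam20c, the kinase that phosphorylates osteopontin and other secreted proteins, read 222, 228 and 108 on cirrhotic and 7.3, 15.6 and 17.5 on control arrays, all control values within background, and was at least 4.31-fold higher. Thbs4, a thrombospondin, read 332, 131 and 152 on cirrhotic and 56.1, 56.1 and 47.0 on control arrays (1.57, SE 0.33, adjusted p = 0.0193 without the filter). These genes were picked after their values had been seen.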
